A study of Mus musculus with 12 samples.

Results

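The 36 genes described here encode the enzymes of glycolysis, the carriers that move glucose and lactate across the cell membrane, and other genes known to be switched on by hypoxia-inducible factor (HIF). They were chosen by symbol, with earlier results of these samples known. All 36 were among the 41079 rows of the counts table, and all 36 were among the 20771 genes that passed the filter on low counts. RNA of 12 whole mouse embryos was sequenced, with collection 10.0 to 11.0 days after fertilization from timed matings between Mfsd12 heterozygotes. The Mfsd12 protein sits in the lysosomal membrane and is needed to bring cysteine into the lysosome. By their genotype labels 4 embryos were Mfsd12 knockout, 4 were Mfsd12 heterozygous and 4 were wild-type, and no other treatment is named. The kind of Mfsd12 allele and the age of each embryo within the collection window are not given in the sources used here, so a knockout embryo may differ from a wild-type embryo in developmental stage as well as in genotype.

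HIF is a pair of DNA-binding proteins, an oxygen-sensitive alpha subunit and the stable partner Arnt. With oxygen present, the prolyl hydroxylases Egln1 and Egln3 mark the alpha subunit for destruction through the von Hippel-Lindau protein, and with little oxygen the alpha subunit persists and the pair binds a short DNA core in its target genes. Targets include glucose transporters, nearly every step of glycolysis, lactate dehydrogenase A, the kinase Pdk1 that holds pyruvate back from mitochondria, and the vessel growth factor Vegfa. Embryos of this age grow rapidly, use glucose heavily and depend on HIF for the placenta, the heart and the blood vessels.

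The letters that HIF binds can be seen in the stretch before the start of several of these genes, and 6 such stretches are shown: those of the 3 members with the largest and the 3 with the smallest excess in the library labelled heterozygous 2, described further on, among members with a stretch in the table. Each runs 5′ to 3′ on the strand of the gene and holds the 250 bases before the annotated start, taken from RefSeq on mouse build GRCm38.p6. Capitals mark the core ACGTG read on either strand, so CACGTG is a match on both strands. Where a gene has several starts, the most upstream is shown. Adm, Pfkp and Ankrd37 had the largest excess and only Ankrd37 of these held the core, while Pfkm, Ldhb and Pfkfb4 had the smallest and only Pfkm held it.
Adm, chr7:110627407-110627656, plus strand: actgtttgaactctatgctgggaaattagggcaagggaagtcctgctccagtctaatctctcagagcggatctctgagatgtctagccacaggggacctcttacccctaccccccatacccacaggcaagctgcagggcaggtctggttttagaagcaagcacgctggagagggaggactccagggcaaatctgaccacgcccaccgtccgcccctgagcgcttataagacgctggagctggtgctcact
Pfkp, chr13:6648772-6649021, minus strand: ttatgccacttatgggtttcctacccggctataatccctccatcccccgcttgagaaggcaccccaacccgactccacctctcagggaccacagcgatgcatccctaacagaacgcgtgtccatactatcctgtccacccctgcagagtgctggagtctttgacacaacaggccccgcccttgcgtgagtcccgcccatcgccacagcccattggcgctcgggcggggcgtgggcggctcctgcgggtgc
Ankrd37, chr8:45999851-46000100, minus strand: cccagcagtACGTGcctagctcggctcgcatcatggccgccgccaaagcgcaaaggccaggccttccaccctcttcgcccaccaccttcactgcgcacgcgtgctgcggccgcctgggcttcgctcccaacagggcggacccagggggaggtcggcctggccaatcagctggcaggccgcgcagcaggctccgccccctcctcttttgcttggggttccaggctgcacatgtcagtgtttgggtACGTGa
Pfkm, chr15:98092339-98092588, plus strand: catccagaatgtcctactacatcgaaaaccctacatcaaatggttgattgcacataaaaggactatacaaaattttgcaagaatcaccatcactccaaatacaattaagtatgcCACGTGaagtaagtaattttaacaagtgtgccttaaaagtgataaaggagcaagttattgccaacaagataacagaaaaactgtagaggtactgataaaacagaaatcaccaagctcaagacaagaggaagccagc
Ldhb, chr6:142507958-142508207, minus strand: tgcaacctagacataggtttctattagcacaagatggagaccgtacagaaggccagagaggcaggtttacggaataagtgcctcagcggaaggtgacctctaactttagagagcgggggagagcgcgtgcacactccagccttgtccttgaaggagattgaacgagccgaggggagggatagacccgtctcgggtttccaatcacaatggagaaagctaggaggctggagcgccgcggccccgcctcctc
Pfkfb4, chr9:108991652-108991901, plus strand: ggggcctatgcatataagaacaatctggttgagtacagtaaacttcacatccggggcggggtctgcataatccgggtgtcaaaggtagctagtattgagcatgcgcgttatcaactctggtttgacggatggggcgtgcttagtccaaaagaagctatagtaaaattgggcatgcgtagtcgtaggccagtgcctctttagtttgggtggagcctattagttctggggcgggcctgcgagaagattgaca
The Ankrd37 stretch held 2 matches, starting 241 and 6 bases before its start. The Pfkm stretch held CACGTG, which counts as 2 matches, from 136 bases before its start. Promoter stretches were found for 34 of the 36 genes, as 50 windows because some genes have several starts. ACGTG on either strand was in 46% of these 50 windows and in 16.6% of the 32851 windows of all genes. With the related core GCGTG counted as well, the shares were 80% and 38.6%. The member windows had a median GC content of 61% against 52.4% for all windows, and the part of base composition in the difference was not tested. A match describes letters only and shows no binding.

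Library totals lay between 53132928 and 67977877 counted reads, and no pair of the 12 libraries agreed within sampling noise. Markers of neurons, cardiac muscle and red blood cells were found in every library, as a whole embryo should give. Mfsd12 itself stood at 3.22, 2.79, 3.57 and 2.31 CPM (counts relative to the scaled total of each library) in the knockout embryos and at 12.7, 16.2, 9.48 and 9.38 CPM in the wild-type embryos. The heterozygous embryos 1, 3 and 4 had 8.84, 6.03 and 5.91 CPM, whereas 2.58 CPM, a value between the lowest and highest knockout, was found in the library labelled heterozygous 2. That library therefore goes against its label on the targeted gene, and the main comparisons that rest on it are given with and without it. The title of that library and the title of knockout 1 share the first number 14, whose meaning is not stated. With edgeR's quasi-likelihood test and Benjamini-Hochberg adjustment, 0 of 20771 genes passed an adjusted p of 0.05 in any pair of genotypes. The targeted gene was among those not called: for knockout against wild-type, Mfsd12 had a log2 fold change of -2.01 ± 0.33 (SE; edgeR adjusted p = 0.385). Without the library labelled heterozygous 2 the edgeR adjusted p was 0.0529, and DESeq2 on all embryos gave 1.14e-05. A gene not called here is therefore not shown to be unchanged.

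Glycolytic enzymes were the most abundant of the 36 genes in wild-type embryos once levels were divided by exon length. Wild-type embryos had a mean of 484 CPM per kb for Tpi1, 290 for Pkm, 252 for Eno1 and 243 for Ldha. The secreted factors, the dioxygenases and the remaining targets lay lower than these 4, from 25.5 CPM per kb for Higd1a and 24.5 for Bnip3 down to 1.18 for Adm and 0.509 for Car9. Some glycolytic enzymes lay in that same range, with Hk1 at 12.9, Hk2 at 11.1, Pfkp at 2.15 and Aldoc at 1.57 CPM per kb. The value for Gapdh, 31.1 CPM per kb, is not a fair measure of that gene. GENCODE transcripts, a set other than the RefSeq annotation used for counting, hold 176 near-identical copies of Gapdh. A copy had at least 90% identity over at least 50% of its transcript, and 8 of the 176 are rows of the counts table. The authors' counting split a read among all places it matched. Eno1 is affected too: with its near-identical copy in the table summed in, it had 1089 to 1647 CPM in wild-type embryos in place of 419.5 to 610.1 CPM, so its place in this order depends on the counting. The order also depends on the deposited exon lengths, 1469 bases for Tpi1, 7687 for Pkm, 2005 for Eno1 and 5342 for Ldha.

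The largest differences among the 12 embryos lay in the library labelled heterozygous 2. It had the highest level of 34 of the 36 genes, where 17.9% of all genes tested had their highest level in that library. In 27 of the 36 it stood over 2 times above the highest of the other 11 embryos (1.51% of all genes tested), and in 20 over 3 times above it (0.515%). Over the 36 genes, its log2 excess over the mean of the other 3 heterozygous embryos had a median of 2.38, and over all genes tested a median of -0.0050. As a share of all counted reads, the 36 genes took 2.47% in that library and 0.593% to 1.12% in the other 11. The library was named for separate display with these values known, so they describe 1 embryo and carry no test.

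**Figure D1:**
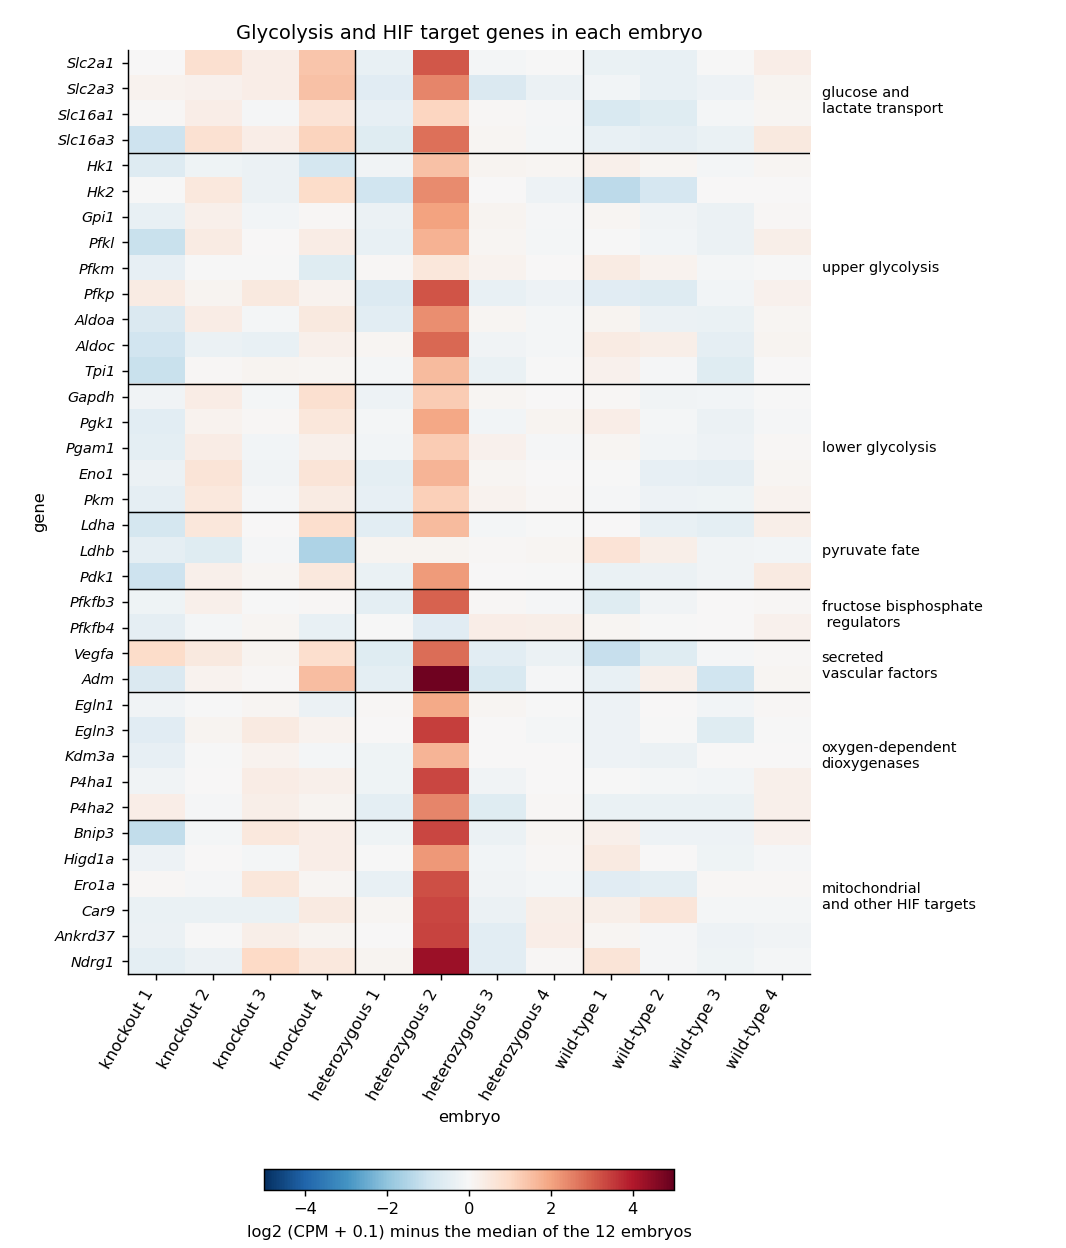
Each row is 1 of the 36 genes, grouped by role, and each column 1 embryo; colour gives the log2 of CPM plus 0.1 minus the median of the 12 embryos. The column of the library labelled heterozygous 2 is red in 34 of 36 rows, with Ldhb near 0 and Pfkfb4 blue.

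Among the carriers, Slc2a1 and Slc2a3, the main glucose transporters of embryonic tissue, were the most abundant per kilobase. Slc2a1 stood at 180.2, 312, 224 and 469 CPM in knockout 1 to 4, at 137, 169 and 178 CPM in heterozygous 1, 3 and 4, and at 143, 139, 174 and 226 CPM in wild-type 1 to 4. The library labelled heterozygous 2 had 1546 CPM, 3.3 times the highest of the others. Every knockout embryo lay above the other 3 heterozygous embryos (3.83% of all genes tested were so placed), and knockout 1 and 3 lay within the wild-type range. Slc2a3 stood at 312, 318, 348 and 770.1 CPM in knockout 1 to 4, at 189, 169 and 228 CPM in heterozygous 1, 3 and 4, and at 253, 214, 229.9 and 304 CPM in wild-type 1 to 4, with 1526 CPM in the library labelled heterozygous 2. All 4 knockout embryos lay above the 4 wild-type embryos (1.6% of all genes tested), and knockout 4 was far above the other 3 knockouts. The margin was narrow here, since knockout 1 at 312 CPM lay just above wild-type 4 at 304 CPM. The lactate carriers also had their highest level in the library labelled heterozygous 2. Slc16a1 was at 217 CPM there against 60.1 to 165 CPM in the other 11, and Slc16a3, the lactate exporter of glycolytic cells, 364 against 26.2 to 117 CPM.

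In the upper part of glycolysis, which spends ATP to split glucose, the platelet-type phosphofructokinase Pfkp had the largest relative excess. It stood at 40.4, 33.3, 41.8 and 34.1 CPM in knockout 1 to 4, at 18.8, 23.3 and 24.8 CPM in heterozygous 1, 3 and 4, at 20.3, 19.2, 26.9 and 34.7 CPM in wild-type 1 to 4 and at 266 CPM in the library labelled heterozygous 2. Members of this step thus differed in size, since liver-type Pfkl had 927 CPM there against 129.8 to 376 and muscle-type Pfkm 128 against 56.7 to 114 CPM. Aldoa, which splits the 6-carbon sugar, stood at 202, 434, 317 and 473 CPM in knockout 1 to 4, at 236, 358 and 312 CPM in heterozygous 1, 3 and 4, at 369.5, 272, 265 and 361 CPM in wild-type 1 to 4 and at 1696 CPM in the library labelled heterozygous 2. Its brain-type relative Aldoc, far less abundant per kilobase, had 2.06, 3.35, 3.13 and 4.95 CPM in the knockouts, 4.4, 3.65 and 3.88 CPM in the other heterozygous embryos, 5.46, 5.04, 2.99 and 4.5 CPM in the wild-type embryos and 30.7 CPM in that library. Tpi1, which interconverts the triose phosphates, had 351, 778, 830.4 and 801 CPM in knockout 1 to 4, 694, 602 and 742 CPM in heterozygous 1, 3 and 4, 871, 717, 498 and 759 CPM in wild-type 1 to 4 and 2230 CPM in the library labelled heterozygous 2. Knockout 1 was the lowest of the 12 for Pfkl, Aldoa, Aldoc and Tpi1. Of the hexokinases, which trap glucose in the cell, Hk2 had 35.8 to 168 CPM in the other 11 embryos and 462 CPM in the library labelled heterozygous 2. Gpi1, the next enzyme, had 1374 against 265 to 405 CPM.

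The lower part, which yields ATP and pyruvate, showed smaller relative differences. Eno1 stood at 465, 874, 506 and 876 CPM in knockout 1 to 4, at 408, 601 and 569 CPM in heterozygous 1, 3 and 4, at 562, 426, 419.5 and 610.1 CPM in wild-type 1 to 4 and at 1837 CPM in the library labelled heterozygous 2. Pkm, the pyruvate kinase, stood at 1702, 3386, 2269 and 3125 CPM in knockout 1 to 4, at 1757, 2651 and 2424 CPM in heterozygous 1, 3 and 4, at 2251, 1964, 2025 and 2668 CPM in wild-type 1 to 4 and at 5328 CPM in that library. Pgk1 had 449 CPM there against 82.6 to 178 in the other 11, Pgam1 579 against 174 to 311 and Gapdh 141 against 48.8 to 102 CPM. The median log2 excess of the 5 lower enzymes was 1.33, that of the 9 upper enzymes 2.07, and that of the 4 carriers 2.98. With the copies in the table summed in, Eno1 had 4528 CPM in the library labelled heterozygous 2 and 943 to 2488 CPM in the other 11, and Gapdh had 468 CPM in the library labelled heterozygous 2 and 162 to 292 CPM in the other 11.

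At the fate of pyruvate the 2 lactate dehydrogenases parted. Ldha, the subunit that favours lactate formation, stood at 758, 2091, 1400 and 2490 CPM in knockout 1 to 4, at 972, 1299 and 1399 CPM in heterozygous 1, 3 and 4, at 1428, 1070, 995 and 1696 CPM in wild-type 1 to 4 and at 4245 CPM in the library labelled heterozygous 2. Ldhb, the subunit of oxidative tissues and no classical HIF target, stood at 137, 123, 181 and 63.4 CPM in knockout 1 to 4, at 205, 193 and 199.7 CPM in heterozygous 1, 3 and 4, at 297, 229, 165 and 168 CPM in wild-type 1 to 4 and at 203 CPM in that library. Its level of Ldhb thus lay within the range of the other 3 heterozygous embryos, while its Ldha lay above every other embryo. Pdk1 had 357 CPM there against 39.3 to 115 CPM in the other 11. The 2 regulators of fructose 2,6-bisphosphate, the signal that drives phosphofructokinase, also parted. Pfkfb3 stood at 40.2, 55.1, 46.2 and 47.9 CPM in knockout 1 to 4, at 32.9, 49 and 44.1 CPM in heterozygous 1, 3 and 4, at 30.8, 41.1, 47 and 48.4 CPM in wild-type 1 to 4 and at 358 CPM in the library labelled heterozygous 2. Pfkfb4 stood at 9.37, 12.2, 13.7 and 10.1 CPM in knockout 1 to 4, at 12.8, 16.4 and 15.9 CPM in heterozygous 1, 3 and 4, at 14, 12.9, 12.9 and 15.1 CPM in wild-type 1 to 4 and at 8.66 CPM in that library, the lowest level of the 12 (18.2% of all genes tested had their lowest level there). Pfkfb4 and Ldhb were the 2 of the 36 genes without their highest level in the library labelled heterozygous 2.

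**Figure D2:**
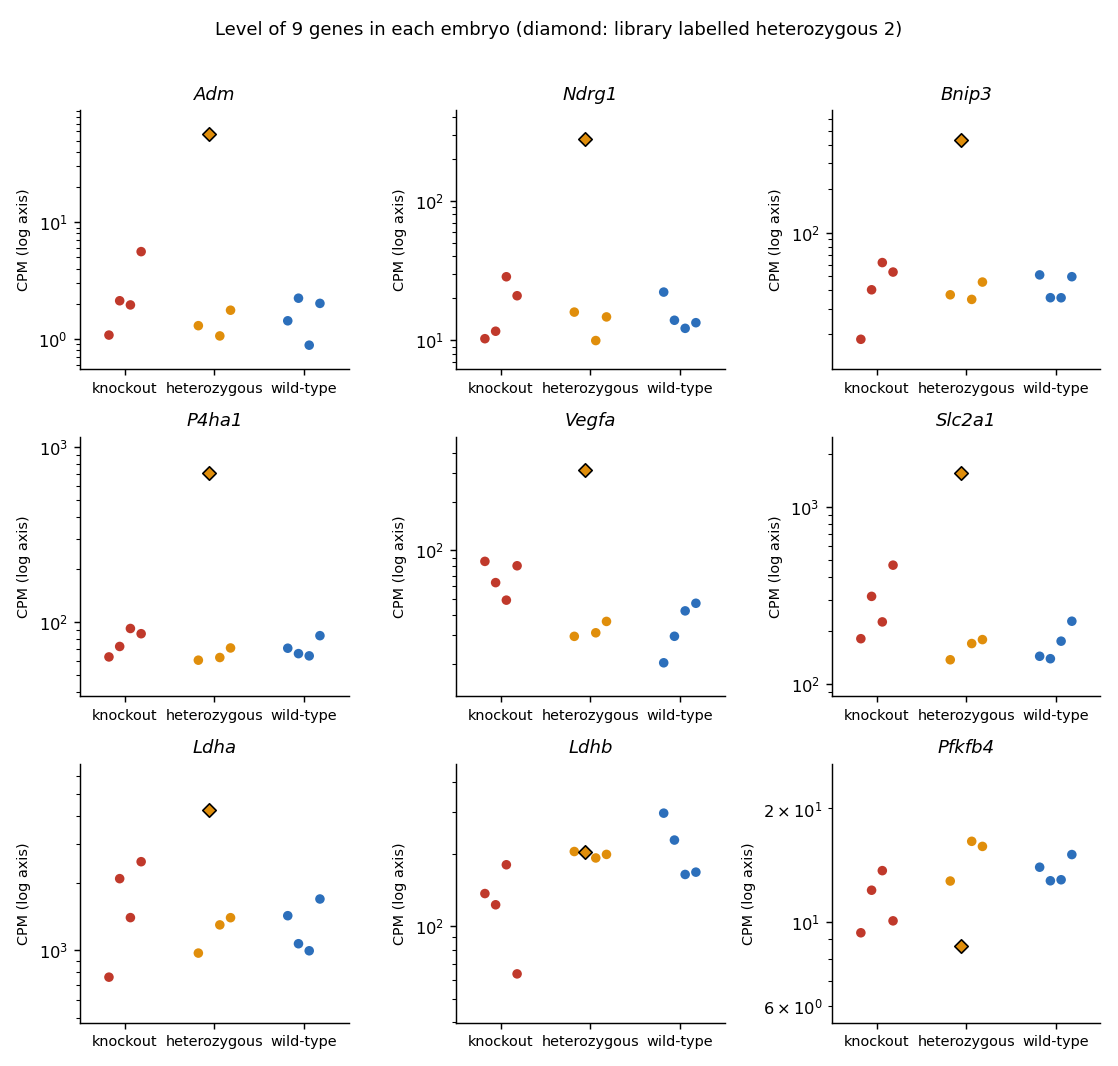
Points give the CPM (log axis) of 9 genes in each of the 12 embryos by genotype, in the order of the embryo numbers. The diamond is the library labelled heterozygous 2, which lies above all other embryos for Adm, Ndrg1, Bnip3, P4ha1, Vegfa, Slc2a1 and Ldha, among them for Ldhb (203 CPM) and below them for Pfkfb4 (8.66 CPM).

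By role, the secreted vascular factors and the mitochondrial and other HIF targets had the largest median log2 excess. The dioxygenases lay below the carriers, at 2.81 against 2.98. Adm, which encodes the vessel-dilating peptide adrenomedullin, stood at 1.08, 2.12, 1.95 and 5.59 CPM in knockout 1 to 4, at 1.3, 1.06 and 1.76 CPM in heterozygous 1, 3 and 4, at 1.43, 2.23, 0.883 and 2.02 CPM in wild-type 1 to 4 and at 56.7 CPM in the library labelled heterozygous 2, 10.1 times the highest of the other 11. Vegfa, the growth factor of blood vessels, stood at 85.6, 63.3, 49.4 and 80.4 CPM in knockout 1 to 4, at 29.5, 31.1 and 36.5 CPM in heterozygous 1, 3 and 4, at 20.3, 29.6, 42.4 and 47.2 CPM in wild-type 1 to 4 and at 311 CPM in that library. Even apart from that library, the 4 knockout embryos were above all wild-type and other heterozygous embryos for Vegfa (0.765% of all genes tested). The margin was narrow, since knockout 3 at 49.4 CPM lay just above wild-type 4 at 47.2 CPM. The Adm stretch shown above held no ACGTG and held the related core GCGTG. The same was true of the Pfkp stretch and of the Ldhb and Pfkfb4 stretches, from members with the smallest excess.

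Among the enzymes that use oxygen as a substrate, Egln3 stood at 4.93, 7.91, 9.91 and 8.31 CPM in knockout 1 to 4, at 7.46, 7.38 and 6.77 CPM in heterozygous 1, 3 and 4, at 6.13, 7.17, 4.75 and 7.16 CPM in wild-type 1 to 4 and at 79.9 CPM in the library labelled heterozygous 2. Egln1, the main oxygen sensor of the pair, had 279.7 CPM there against 61.8 to 80.7 CPM in the other 11. P4ha1, a prolyl hydroxylase that matures collagen, stood at 63.2, 72.5, 91.9 and 85.8 CPM in knockout 1 to 4, at 60.5, 62.7 and 71.1 CPM in heterozygous 1, 3 and 4, at 70.9, 66, 64.1 and 83.6 CPM in wild-type 1 to 4 and at 710.1 CPM in that library. Its relative P4ha2 had 194 against 23 to 44.7 CPM. Kdm3a, a histone demethylase, stood at 93.2, 121, 139 and 114 CPM in knockout 1 to 4, at 104, 124 and 124 CPM in heterozygous 1, 3 and 4, at 104, 101, 124 and 125 CPM in wild-type 1 to 4 and at 401 CPM in the library labelled heterozygous 2. For each of these 5 genes the other 11 embryos overlapped between knockout and wild-type.

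The remaining targets are proteins of mitochondria, of folding and of pH control and genes of less settled function. Bnip3, which directs mitochondria to autophagy, stood at 18.5, 40.5, 62.2 and 53.5 CPM in knockout 1 to 4, at 37.4, 34.7 and 45.7 CPM in heterozygous 1, 3 and 4, at 51.2, 35.7, 35.6 and 49.8 CPM in wild-type 1 to 4 and at 431 CPM in the library labelled heterozygous 2. Ndrg1, a stress-responsive gene of differentiating cells, stood at 10.3, 11.6, 28.6 and 20.9 CPM in knockout 1 to 4, at 15.9, 9.96 and 14.7 CPM in heterozygous 1, 3 and 4, at 22.2, 13.9, 12.2 and 13.4 CPM in wild-type 1 to 4 and at 279 CPM in that library. Apart from that library, Bnip3 was lowest in knockout 1 and both genes were highest in knockout 3. Ankrd37, a small ankyrin-repeat protein, had 49.1 CPM in the library labelled heterozygous 2. It had 3.73, 4.54, 5.62 and 5.06 CPM in knockout 1 to 4, 4.62, 3.14 and 5.79 CPM in heterozygous 1, 3 and 4 and 4.96, 4.45, 3.83 and 4.08 CPM in wild-type 1 to 4. Higd1a, a small protein of the inner mitochondrial membrane, stood at 39.8, 48.1, 45.2 and 60.3 CPM in knockout 1 to 4, at 47.9, 43.4 and 49.7 CPM in heterozygous 1, 3 and 4, at 65.8, 48.7, 40.9 and 46 CPM in wild-type 1 to 4 and at 216 CPM in that library. Ero1a, an oxidase of protein folding, had 450.3 CPM there against 33.1 to 72.5 in the other 11, and Car9, a carbonic anhydrase, 10.5 against 0.729 to 1.51 CPM. The median log2 excess was 4.32 for the 2 secreted vascular factors, 3.44 for these 6 targets and 2.81 for the 5 dioxygenases.

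The members with the core ACGTG in a window had a median log2 excess of 2.89 (20 genes, 0.50 to 3.48) in the library labelled heterozygous 2, and those without it 1.84 (14 genes, -0.78 to 5.37). The 2 ranges overlapped, and no test was made.

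Knockout 1, whose title begins with the same number as that library, did not share the pattern. It had the lowest level of the 12 for 14 of the 36 genes (5.94% of all genes tested), among them 8 of the 14 glycolytic enzymes, and the highest for 0 (4.43%). Its log2 difference from the mean of the other knockouts had a median of -0.47, and 4 of the 36 genes were higher in it than that mean (48.5% of all genes tested). Vegfa was among the exceptions, at 85.6 CPM the highest value outside the library labelled heterozygous 2. In knockout 4 the median log2 difference from the other knockouts was 0.43, and 12 of the 36 genes had their highest level of the 11 embryos there (19.9% of all genes tested).

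Between genotypes, the 3 comparisons share samples in pairs, so their values are given side by side. For knockout against wild-type, edgeR's quasi-likelihood test called 0 of the 36 genes (0% of all genes tested), and 1 gene, Ldhb, had an unadjusted p under 0.05 (8.33% of all genes tested). Its direction was lower in knockout embryos. For knockout against heterozygous, the test called 0 members (0% of all genes), and 13 had an unadjusted p under 0.05, all lower in knockout embryos (3.79% of all genes tested in that direction). For heterozygous against wild-type, it called 0 members (0% of all genes), and 14 had an unadjusted p under 0.05, all higher in heterozygous embryos (0.732% of all genes tested in that direction). DESeq2 gives no p-value for a gene with an outlying count and so tested only 20 of the 36. The 16 members without one, 44.4% against 0.982% of all genes, included Vegfa, Adm and Egln3. Of the 20, DESeq2 called 0 in each comparison (0.644%, 0.367% and 0.0194% of all genes with an adjusted p), and 1, 5 and 3 had an unadjusted p under 0.05 (9.73%, 8.6% and 1.27% of all genes with a p). Estimates for heterozygous against wild-type were positive for 34 of the 36 (48.4% of all genes tested). The median log2 fold change of the 36 genes was 0.16, -0.78 and 0.97 in that order, and over all genes tested 0.011, -0.00055 and -0.0094.

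These values depended on the library labelled heterozygous 2. Without it, heterozygous against wild-type had a median log2 fold change of -0.066 over the 36 genes, and 0 had an unadjusted p under 0.05 (0.503% of all genes tested). Adm, for example, had a log2 fold change of 3.21 ± 1.15 (SE; adjusted p = 1) with that library and -0.25 ± 0.51 (adjusted p = 0.9998) without it. Egln3 had 2.01 ± 0.70 with it (adjusted p = 1) and 0.19 ± 0.24 without it (adjusted p = 0.9998). Knockout against heterozygous turned in sign, from a median of -0.78 to 0.17 (-0.069 with the stage index described further on as a covariate), with 5 members higher (4.58% of all genes tested) and 3 lower (3.96%) at an unadjusted p under 0.05. The 3 lower members were Hk1, Ldhb and Pfkfb4, and the 5 higher were Slc2a1, Slc2a3, Pfkp, Vegfa and P4ha2.

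**Figure D3:**
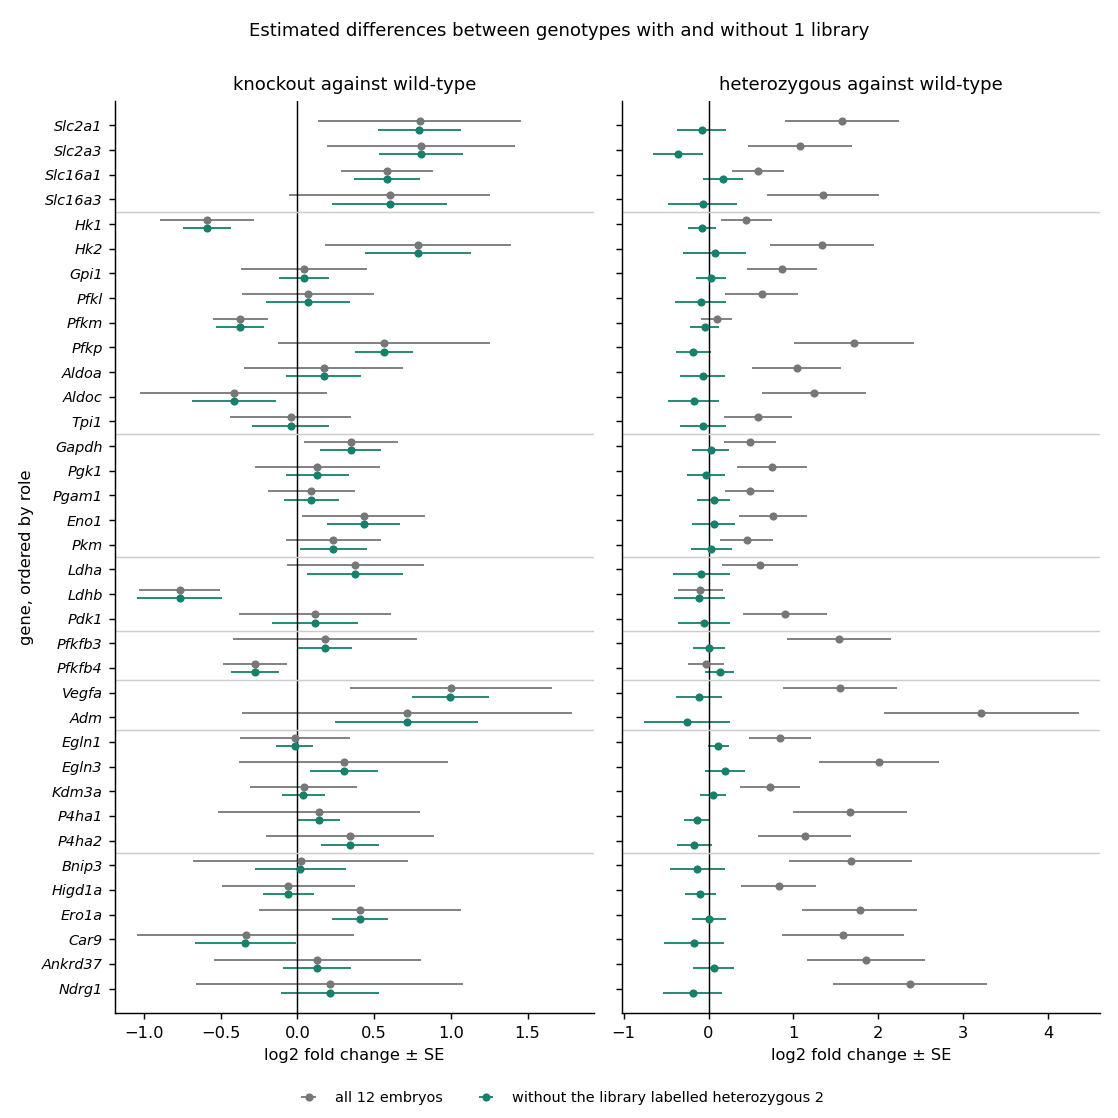
Points give the log2 fold change of each of the 36 genes with its standard error, for knockout against wild-type (left) and heterozygous against wild-type (right), with all 12 embryos (grey) and without the library labelled heterozygous 2 (green). On the right the grey points lie above 0 for 34 of 36 genes and the green points lie around 0; on the left both sets have the same centres and the green bars are mostly shorter.

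Knockout against wild-type does not use the heterozygous embryos for its difference, but they enter the estimate of spread. Without the library labelled heterozygous 2, 10 members had an unadjusted p under 0.05 (10.1% of all genes tested), and the test still called 0 (0% of all genes). Higher in knockout embryos were Slc2a1, Slc2a3, Slc16a1, Hk2, Pfkp, Vegfa and Ero1a, and lower were Hk1, Pfkm and Ldhb. The 7 higher were 19.4% of the 36, where 5.36% of all genes tested were higher at that threshold, and the 3 lower were 8.33%, where 4.74% were lower. Fitted on the 8 knockout and wild-type embryos alone, 8 members had an unadjusted p under 0.05 (8.09% of all genes tested), and these were the same genes without Pfkm and Ero1a. The estimates themselves were almost equal in the fits with and without that library.

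In the deposited annotation of build GRCm39, Vegfa lies at chr17:46327919-46343303, Slc2a3 at chr6:122704783-122779149 and Hk1 at chr10:62104634-62215699, and the counts cover the exons of each gene. Vegfa had a mean of 69.7 ± 16.6 CPM (SD, n = 4) in knockout embryos and 34.9 ± 12.2 CPM (SD, n = 4) in wild-type embryos. Its log2 fold change was 0.999 ± 0.66 (SE; edgeR adjusted p = 0.678) with all embryos and 0.998 ± 0.25 (adjusted p = 0.412) without the library labelled heterozygous 2. The Slc2a3 means were 437 ± 222 CPM (SD, n = 4) and 250.2 ± 39.1 CPM (SD, n = 4). Its log2 fold change was 0.81 ± 0.61 (SE; edgeR adjusted p = 0.716) with all embryos and 0.80 ± 0.27 (adjusted p = 0.429) without that library. Slc2a3 and Vegfa were the 2 members with every knockout above every wild-type embryo, where 1.6% of all genes tested were so placed. The same 2 stood above the other 3 heterozygous embryos as well (0.765% of all genes). Slc2a1 had a log2 fold change of 0.80 ± 0.66 (edgeR adjusted p = 0.738) with all embryos and 0.80 ± 0.27 (adjusted p = 0.429) without that library. For Pfkp the 2 fits gave 0.56 ± 0.69 (edgeR adjusted p = 0.8125) and 0.56 ± 0.19 (adjusted p = 0.429).

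Hk1, Ldhb and Pfkm, with lower estimates in knockout embryos, did not pass after adjustment. Hk1, the hexokinase of most tissues and of red blood cells, stood at 41.2, 55.7, 52.5 and 35.7 CPM in knockout 1 to 4, at 58.3, 71.1 and 68.8 CPM in heterozygous 1, 3 and 4, at 78.6, 68.8, 61.6 and 69.7 CPM in wild-type 1 to 4 and at 181 CPM in the library labelled heterozygous 2. It was the 1 member with every knockout below every wild-type embryo (1.82% of all genes tested) and below the other 3 heterozygous embryos too (0.905%). Its log2 fold change was -0.59 ± 0.30 (edgeR adjusted p = 0.621) with all embryos and -0.59 ± 0.15 (adjusted p = 0.412) without the library labelled heterozygous 2. Ldhb had a log2 fold change of -0.77 ± 0.27 (edgeR adjusted p = 0.5375) with all embryos and -0.77 ± 0.28 (adjusted p = 0.444) without that library. Muscle-type Pfkm stood at 63.8, 83.4, 84.5 and 56.7 CPM in knockout 1 to 4, at 89.6, 95.5 and 86.3 CPM in heterozygous 1, 3 and 4 and at 114, 96.1, 79.2 and 84.6 CPM in wild-type 1 to 4. Its log2 fold change was -0.37 ± 0.18 (edgeR adjusted p = 0.612) with all embryos and -0.37 ± 0.16 (adjusted p = 0.476) without that library. The Pfkm ranges overlapped between knockout and wild-type embryos.

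Values of other cells and of stage moved with these groups. The 16 red blood cell genes summed to 5205 to 18920 CPM in knockout embryos and 17970 to 96040 CPM in wild-type embryos, and the 12 neuronal genes to 212 to 808 and 767 to 1242 CPM. The 12 genes of trophoblast and decidua summed to 52.9 to 372 CPM in knockout embryos, highest in knockout 4, and to 32.4 to 44.7 CPM in wild-type embryos. In RNA from whole embryos, fewer cells of a type and less RNA per cell cannot be told apart. A stage index, built from 14 genes that increase and 11 that decrease as embryos develop (mean z score of the former minus the latter), was -3.52 in knockout 4, -1.37 to 0.52 in the other knockouts and -0.40 to 1.86 in wild-type embryos. The index shares genes with lists of cell types: Afp with yolk sac endoderm, and Tubb3 and Stmn2 with neurons. Afp stood at 3319 CPM in knockout 3 and 4.54 to 513 CPM in the other embryos. The index therefore cannot separate stage from cell make-up. With this index as a covariate and all embryos in the fit, the log2 fold changes of knockout against wild-type were 0.33 for Vegfa, -0.085 for Slc2a3, -0.13 for Slc2a1, -0.62 for Hk1 and -0.29 for Ldhb. Without the library labelled heterozygous 2 the same covariate gave 0.69 for Vegfa, 0.20 for Slc2a3, 0.19 for Slc2a1, -0.44 for Hk1 and -0.25 for Ldhb. Leaving out knockout 4 as well as that library gave 0.91 for Vegfa, 0.37 for Slc2a3, 0.47 for Slc2a1, -0.49 for Hk1 and -0.56 for Ldhb. Within the title numbers 4 and 18, each with 1 knockout and 2 wild-type embryos, the log2 differences were 0.50 and 1.01 for Vegfa, 0.27 and 0.58 for Slc2a3, and -0.23 and -0.49 for Hk1. The part of stage and of cell make-up in the genotype differences was not tested apart from these fits.

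The balance of isozymes was compared over embryos as 9 shares of level per kilobase within 8 families. The size of a share depends on the deposited exon lengths, such as 5342 bases for Ldha and 1304 for Ldhb. In CPM not divided by length, the wild-type means were 1297 for Ldha and 215 for Ldhb. Hk1 made up 32.6% ± 10.5 of Hk1 and Hk2 (SD, n = 4) in knockout embryos and 55.3% ± 12.9 (SD, n = 4) in wild-type embryos. The exact two-sided permutation test gave p = 0.0571 and, adjusted over the 9 shares, 0.257. For Ldhb of Ldha and Ldhb the shares were 26.5% ± 14.9 and 40.5% ± 8.23 (SD, n = 4 each; exact p = 0.2, adjusted 0.343), with 9.44% in knockout 4 and 42.5% in knockout 1. Aldoc of Aldoa and Aldoc had 0.61% ± 0.0798 against 0.908% ± 0.202 (SD, n = 4 each; exact p = 0.0286, the smallest that 4 against 4 can give, adjusted 0.257). No share passed after adjustment over the 9. In the library labelled heterozygous 2, Slc16a3 made up 66.9% of the 2 lactate carriers against 22.7% to 46.4% in the other 11, and Egln3 25% of Egln1 and Egln3 against 7.48% to 13.6%. Its Pfkm share of the phosphofructokinases was 13.4%, below the 15.6% to 35.3% of the others, and its Pfkp share 7.83%, above their 1.68% to 6.30%. Its P4ha1 share of P4ha1 and P4ha2 was 67.1% against 44.1% to 60.3%, and its Slc2a3 share of Slc2a1 and Slc2a3, 30.2%, lay just below the 30.5% to 43.7% of the others. Its Ldhb share, 16.4%, and its Hk1 share, 30.3%, lay within the range of the other 11. The knockout embryos spanned 9.44% to 42.5% for Ldhb and 19.1% to 44.6% for Hk1. The level of Hk1 itself, 181 CPM, was the highest of all embryos in that library.

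**Figure D4:**
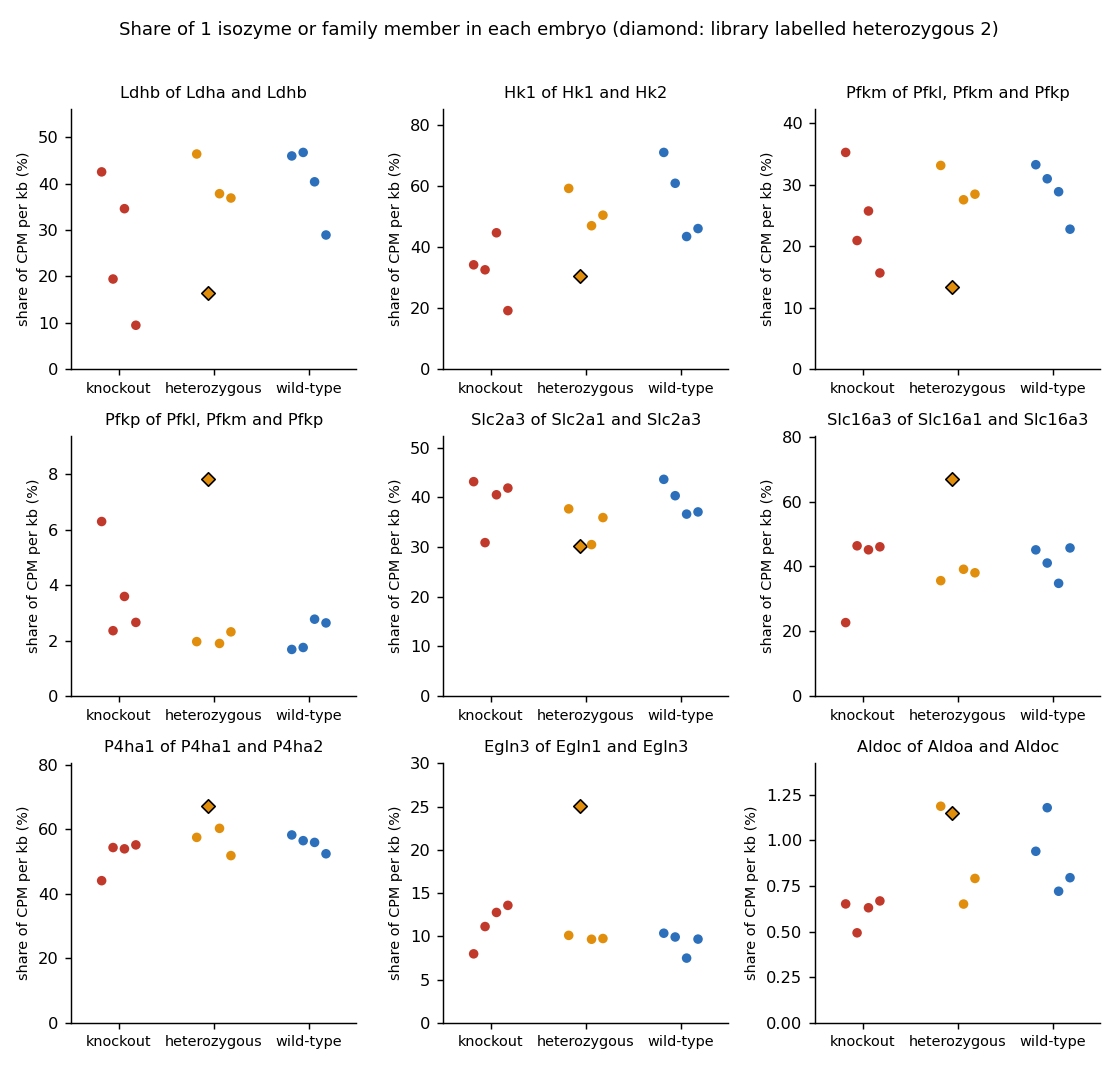
Each panel gives the share of 1 isozyme in the summed CPM per kb of its family, in percent, for each embryo by genotype. The diamond, the library labelled heterozygous 2, lies outside the other 11 for Pfkm, Pfkp, Slc16a3, P4ha1, Egln3 and, narrowly, Slc2a3, and knockout embryos lie at 19.1% to 44.6% for Hk1 where wild-type embryos lie at 43.4% to 70.9%.

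Genes around the 36 were read from lists of the same pathways. Of 36 other HIF targets, which hold no member, 24 had their highest level in the library labelled heterozygous 2 (17.9% of all genes tested) and 10 stood over 2 times above the other 11 embryos (1.51%). The list summed to 3740 CPM there and 1164 to 1546 CPM in the others, and Ddit4, a brake on growth signalling, had 579 CPM against 32.9 to 66.6 (it is also counted among the ATF4 targets). The 16 genes of the HIF machinery summed to 1244 CPM there and 1310 to 1434 in the others, and Hif1a itself had 147 CPM against 148 to 210.2. Glycogen and gluconeogenesis genes summed to 1258 CPM against 453 to 727, with Pgm1, which links glycogen to glycolysis, at 392.1 against 60.3 to 95.6 CPM. Genes of pyruvate entry and pyruvate dehydrogenase summed to 828 CPM there, above the 630 to 702 CPM of the others. Pentose phosphate genes, at 1054 CPM, and citric acid cycle genes, at 3491 CPM, lay within the ranges of the other 11, 709 to 1221 and 2701 to 3641 CPM. In 0 of these lists did a gene pass edgeR's adjusted threshold in any pair of genotypes. For knockout against wild-type without the library labelled heterozygous 2, the other HIF targets had 4 genes higher and 2 lower at an unadjusted p under 0.05 (5.36% and 4.74% of all genes tested) and a median log2 fold change of 0.12, where the 36 members had 7, 3 and 0.16.

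ATF4 targets, genes of amino acid and stress metabolism, were read from another list. They summed to 5175 CPM in the library labelled heterozygous 2 and to 4816, 3223, 1436 and 1886 CPM in knockout 1 to 4. Wild-type embryos had 1121 to 1370 CPM and the other 3 heterozygous embryos 1125 to 1402 CPM, so every knockout embryo lay above both. For knockout against wild-type with all embryos, 16 of the 24 genes were higher at an unadjusted p under 0.05 in edgeR's test (4.25% of all genes tested). The median log2 fold change of the list was 1.49, and 0 of its genes passed after adjustment. Knockout 1 thus had a high sum of ATF4 targets and a low sum of the 36 genes, 5752 CPM against 6355 to 11700 in the other 10 and 27920 in the library labelled heterozygous 2. Knockout 4 and 2, next highest for the 36 genes at 11700 and 10830 CPM, had 1886 and 3223 CPM of ATF4 targets. Chaperones of the endoplasmic reticulum summed to 9337 CPM in that library and 4644 to 5517 in the other 11, where knockout 1 had 5015.

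**Figure D5:**
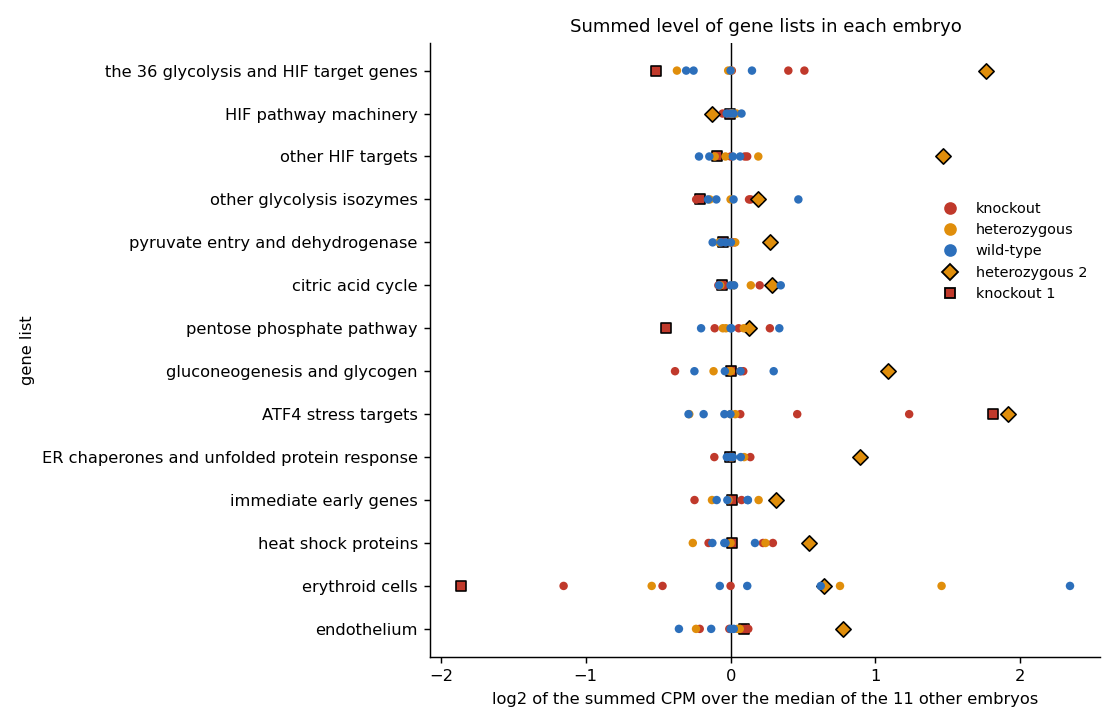
Each row is a gene list and each point 1 embryo, placed by the log2 of its summed CPM over the median of the 11 embryos other than the library labelled heterozygous 2. That library (diamond) lies highest for the 36 genes, the other HIF targets, glycogen genes, pyruvate entry genes and ATF4 targets. It also lies highest for endoplasmic reticulum chaperones, immediate early genes, heat shock proteins and endothelium, and lowest for the HIF machinery. Knockout 1 (square) lies lowest for the 36 genes and next to the diamond for the ATF4 targets.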

How the data were processed

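For the 12 embryos the authors deposited estimated counts (expected counts, not normalized) in 1 table, made with featureCounts 2.0.6 on RefSeq GRCm39, per the file headers. Reads matching several places or genes were split into fractions, mates were counted singly and strand was not used, per the file headers. Near-identical copies, overlapping genes and antisense genes therefore share reads. DRAGEN and Subread are also named, per the submitters' processing notes. Libraries came from 325 ng of RNA each, per the labels' protocols, and the table held 0 rows of spike-in RNA.

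Counts were rounded to whole numbers, filtered with filterByExpr and scaled by TMM. Genotypes were compared with a two-sided quasi-likelihood test (edgeR 4.0.16, R 4.3.3; robust fit, 1 mean for each genotype, 12 embryos), adjusted by Benjamini-Hochberg over all genes with a threshold of 0.05. Each standard error was the fold change divided by the root of F. CPM used the TMM-scaled totals, log2 CPM a prior count of 2, and levels per kilobase the exon lengths of the deposited table. Isozyme shares were compared by exact permutation. The edgeR test of knockout against wild-type was also run on simulated counts, drawn without an outlying library. DESeq2, voom and the permutation test were not run on simulated data. Each embryo is a labelled separate sample; numbers within a genotype follow deposition order and pair nothing.

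The members, roles and 22 other gene lists were chosen with earlier results of these data known. Values in every embryo are printed for the 2 most abundant members per kilobase of each role, the 2 with the smallest p in each comparison and the 5 with the largest excess in the library labelled heterozygous 2; values in every embryo of other members were printed by choice after they were seen. Promoter sequences are from RefSeq (GRCm38.p6). Alternatives were DESeq2 1.42.0, limma 3.58.1 voom with sample weights, other scalings and filters, covariates for title number, Xist and stage index, and each embryo left out in turn; 4 more were added after seeing the data.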

Additional observations from a re-analysis of the deposited data

Results flagged for a closer look

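For the 23 members printed embryo by embryo, the highest and lowest value in each group of 4 was compared with the gap to its nearest neighbour, 69 groups in all. A gap above the 95% critical value of Dixon's ratio for 4 samples singled out 21 values. Chance alone singles out about 1 in 20 groups, but the 2 cannot be compared here: the library labelled heterozygous 2 was named with its values known, and 5 of the members were chosen for their excess in it. The values are therefore given as a description. Of these, 19 were the library labelled heterozygous 2, highest of the heterozygous embryos: Slc2a1 (1546 CPM), Slc2a3 (1526 CPM), Hk1 (181 CPM), Pfkp (266 CPM), Aldoa (1696 CPM), Aldoc (30.7 CPM), Tpi1 (2230 CPM), Eno1 (1837 CPM), Ldha (4245 CPM), Pfkfb3 (358 CPM), Vegfa (311 CPM), Adm (56.7 CPM), Egln3 (79.9 CPM), Kdm3a (401 CPM), P4ha1 (710.1 CPM), Bnip3 (431 CPM), Higd1a (216 CPM), Ankrd37 (49.1 CPM) and Ndrg1 (279 CPM). The other 2 were in knockout embryos. Slc2a3 in knockout 4 had 770.1 CPM, the highest of the 4, and Tpi1 in knockout 1 had 351 CPM, the lowest of the 4.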

How the results depend on the processing

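With edgeR, 0 members passed the adjusted threshold in any comparison under any alternative, nor with voom, nor with DESeq2 among the 20 members for which it gave a p-value. Counts from DESeq2 below are over those 20. The labels give no replicate numbers, and the first number of the titles was used as a block. Leaving out each embryo in turn, members at an unadjusted p under 0.05 numbered 1 to 10 (knockout against wild-type), 3 to 19 (knockout against heterozygous) and 0 to 27 (heterozygous against wild-type), the 10 and the 0 being without the library labelled heterozygous 2. Their median log2 fold changes were 0.081 to 0.31, -1.02 to 0.17 and -0.066 to 1.22, with the sign turned only without that library. In the same order of comparisons, the medians were -0.15, -0.54 and 0.43 under that block, -0.24, -1.15 and 0.91 with stage as a covariate and -0.063, -0.22 and 0.091 with voom. Members at an unadjusted p under 0.05 numbered 3, 2 and 8 in the first with library totals, upper quartile factors and the compared genotypes alone, 5 with voom and 0 with stage. In the second they numbered 5 with DESeq2, 2 with Xist, 4 with the block, 5 with voom, 7 without a count filter, 5 with the compared genotypes alone and 22 with stage. In the last they numbered 3 with DESeq2, 0 with Xist, the block and voom, and 6 without a count filter and with the compared genotypes alone. Of 4 alternatives added after seeing the data, 3 left out the library labelled heterozygous 2. With knockout 4 also left out, counts were 6, 6 and 1 and the medians of the last 2 comparisons 0.064 and -0.070. With the block, counts were 11, 8 and 0 and those medians 0.32 and -0.068. With stage, counts were 3, 2 and 0 and the medians -0.056, -0.069 and 0.0070. The median log2 excess of that library was 2.18 with library totals against 2.38, and 2.28 to 2.48 with another heterozygous embryo left out. Of 621 values of named members per comparison, 51, 64 and 73 had the other sign. Near-identical copies were found for 12 members among GENCODE transcripts and for 4 members in the counts table. Summing the copies in the table, the fourth added alternative, left the numbers of members at an unadjusted p under 0.05 at 1, 13 and 14. It raised Eno1 levels 2.31 to 2.93 times and Gapdh levels 2.86 to 3.70 times.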

Other observations

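Markers of single tissues were read in the library labelled heterozygous 2 as well. Its 16 red blood cell genes summed to 29620 CPM, within the 5205 to 96040 CPM of the other 11 embryos, and its 12 neuronal genes to 687 CPM, within 212 to 1317. The 10 cardiac muscle genes, at 1559 CPM, lay above the 538 to 1243 CPM of the others, with Actc1, the cardiac actin, at 673 CPM against 167 to 456. The 8 endothelial genes, at 612 CPM, lay above 279 to 389 CPM, with the vessel cadherin Cdh5 at 121 against 33.7 to 84.3 CPM. Of the cardiac genes 4, and of the endothelial genes 6, had their highest level in that library (17.9% of all genes tested). Of the red blood cell and neuronal genes 0 did. The 13 messenger RNAs encoded in mitochondria summed to 16720 CPM, within 10000 to 28300 CPM. Their part in the values of the 36 genes was not tested.

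Heat shock proteins summed to 11720 CPM in that library and 6733 to 9878 CPM in the other 11, with Hsp90ab1, the most abundant per kilobase, at 7282 against 3221 to 5640 CPM. Of the 11 genes, 4 had their highest level there and 2 stood over 2 times above the other 11 embryos (17.9% and 1.51% of all genes tested). These 2, named after their values were seen, were the inducible chaperones Hspa1a, at 56.2 against 0.254 to 1.25 CPM, and Hspa1b, at 50.1 against 0.524 to 2.44 CPM, near-identical genes that share reads. Immediate early genes, which respond to handling and to growth signals, summed to 307 CPM against 208 to 282 CPM. Of the 17 genes, 7 had their highest level there and 4 stood over 2 times above the other 11 embryos. These 4, also named after their values were seen, were Fos at 22.9 against 1.15 to 3.74 CPM, Ier3 at 37.7 against 1.17 to 3.86, Nr4a1 at 21.3 against 3.44 to 8.02 and Zfp36 at 24.3 against 4.72 to 9.45 CPM. Ier2 stood lower there, at 14.8 against 25.8 to 57.5 CPM. The part of these genes in the values of the 36 genes was not tested.

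In knockout 3 the 10 genes of yolk sac endoderm summed to 4766 CPM, with 697 CPM in heterozygous 1 and 63.3 to 174 CPM in the other 10. The median log2 difference of the 36 genes in knockout 3 from the other knockouts was 0.0037. In knockout 4 the 12 genes of trophoblast and decidua summed to 372 CPM, against 29.9 to 58.2 CPM in the other embryos. The 4 genes listed for ribosomal RNA summed to 68960 CPM there and to 7154 to 28290 CPM in the others. The part of these differences in the values of the 36 genes in knockout 4 was not tested.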
